A study of Mus musculus with 6 samples.

Results

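The interferon response genes described here are 39 of the 37224 genes in the deposited expression table. They were chosen by name, as genes whose Ensembl ID maps to a listed interferon receptor, signaling factor or interferon-stimulated gene, and all 39 were found. They are called members below. RNA-seq covered 4 groups of C57BL/6 mouse embryonic fibroblasts, cultured connective tissue cells from embryos that the labels call primary. The groups were wild-type control, wild type with low-dose sodium arsenite, Dot1L-/- control and Dot1L-/- with low-dose sodium arsenite. Values set 4 in a row below follow this order. Arsenite is an inorganic arsenic salt, and Dot1L adds methyl groups to a lysine in the core of histone H3. Exposure lasted 24 h, and the protocol lists 5 and 10 µM arsenite beside the untreated condition without saying which of them was sequenced. The protocol speaks of 2 cell lines and the labels name 2 genotypes, so genotype and other differences between lines cannot be told apart. Each group held 1 library, so there is no replicate check and no test: every difference is between libraries. A further 2 libraries of the histone mark H3K27ac were not analysed here.

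Type I interferons signal through the receptor chains IFNAR1 and IFNAR2 and interferon gamma through IFNGR1 and IFNGR2. Janus kinases at these receptors activate transcription factors. A complex with STAT2 and IRF9 binds the interferon-stimulated response element, and interferon gamma acts through the gamma-activated site. The genes switched on in this way include antiviral effectors, RNA sensors, guanylate-binding proteins and the parts of MHC class I antigen presentation. Fibroblasts are among the cells that make interferon beta when their cytosolic sensors detect foreign RNA.

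Depth, recovered from the deposited values, ran from 10833103 reads in wild type with arsenite to 64699847 in the null control, and the controls were 5.81 and 5.45 times deeper than the arsenite libraries of their genotype. Differences are given as log2 of the ratio of RPKM + 1, where RPKM is the read number scaled by gene length and library size. The 12588 genes that reached an RPKM of 1 in some library were compared, and a gene is called higher or lower at 2-fold on that scale. Folds in the text are ratios of RPKM with 95% intervals that cover counting error only. Dot1l stood at an RPKM of 30.4, 5.71, 9.59 and 1.24. Its level was 3.17-fold lower (3.07 to 3.26) in the untreated null library and 4.61-fold lower (3.79 to 5.63) in the null with arsenite, lower but not absent. Which part of the gene was deleted is not given in the sources used here, so reads from the rest of it cannot be told apart from intact transcript. Of 11 fibroblast markers 9 reached an RPKM of 1. The others were Lum, at most 0.0459, and Thy1, listed at 0 in all 4 libraries. The sums of the list were 2003, 823, 1353 and 1181, of which Vim alone made up 1310, 702, 893 and 1001. Lymphocyte markers reached it in 0 of 9 genes, with summed RPKM values of at most 0.672. Macrophage and leukocyte markers reached it in 4 of 12, with sums of 24.6, 19.1, 5.05 and 12.0. Cd14 made up 21.1, 11.6, 1.16 and 1.71 of these sums, and Cd68 2.59, 4.26, 2.02 and 5.56. The endothelial list reached an RPKM of 1 in 1 of 8. The epithelial list reached it in 2 of 8, with a sum of 22.6 in the null with arsenite against 2.04 to 7.90 elsewhere, of which Krt19 made up 22.4. Of 7 plasmacytoid dendritic cell markers 4 reached it, 1 of them the member Bst2, while Siglech and Ly6d were listed at 0 in all 4 libraries. The part of any of these cells in the results was not tested.

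The promoters of the members were searched for the elements that these factors bind. The core of the interferon-stimulated response element was searched as GAAANNGAAA on both strands of RefSeq windows in GRCm38.p6, from 250 bases before to 50 after each gene's start. It was present in 12 of the 31 members with a window and in 3.99% of 27025 genes. The stretches below are shown because their genes cover the range of the results, from B2m and Bst2, higher with arsenite, to Gbp2 and Gbp3, lower with it in wild type, and to Isg15 and Ifit3, under an RPKM of 3 in every library. Capitals mark the matches, in either orientation and with overlapping matches joined, and each match lies before the transcript start on which its window is set. That start can differ from the start of the whole gene: the Ifit3 stretch lies inside the annotated gene span, which begins earlier, and the Gbp3 stretch runs across the first base of its span.
Isg15: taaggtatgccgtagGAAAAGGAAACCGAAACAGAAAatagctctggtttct
B2m: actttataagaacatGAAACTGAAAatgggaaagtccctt
Bst2: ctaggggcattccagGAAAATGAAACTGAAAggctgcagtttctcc
Gbp2: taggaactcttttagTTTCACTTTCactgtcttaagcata
Gbp3: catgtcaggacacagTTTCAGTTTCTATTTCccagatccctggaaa
Ifit3: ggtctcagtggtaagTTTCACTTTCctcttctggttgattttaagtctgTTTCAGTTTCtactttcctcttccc
The Isg15 stretch is chr4:156200860-156200911 on the minus strand, with 3 overlapping matches that begin at position −78 from the start. The B2m stretch is chr2:122147533-122147572 on the plus strand, with 1 match at −139. Bst2 has 2 overlapping matches from −130, in chr8:71537572-71537617 on the minus strand. Gbp2 has 1 match at −59, in chr3:142620589-142620628, and Gbp3 has 2 overlapping matches from −45, in chr3:142559984-142560029, both on the plus strand. Ifit3 has 2 separate matches from −156, in chr19:34583358-34583431 on the plus strand. The other members with the core were Ddx58, Ifih1, Ifit1, Oas1a, Rsad2 and Stat2. The core of the gamma-activated site, searched as TTCNNNGAA, which is its own reverse complement, was in 8 of the 31 members, namely Adar, Bst2, Ifi35, Ifit2, Ifnar1, Ifnar2, Irf1 and Oas1a, and in 9.55% of all genes with a window. A match is a description of the letters and does not show that a factor binds there.

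Many classical markers of an active interferon response were low in all 4 libraries. Of the 39 members, 14 stayed under an RPKM of 1 in every library. They are Ifit1, Irf7, Usp18, Rsad2, Ifi44, Oas1a, Oas2, Oasl2, Mx1, Mx2, Ifih1, Dhx58, Parp14 and Trim25. Together these 14 genes held 879, 60, 960 and 189 reads, from 0 to 369 for a gene in a library, and their summed RPKM was 2.39, 1.36, 3.05 and 3.43. Rsad2, which encodes the antiviral enzyme viperin, had 2, 0, 5 and 0 reads, and Oas1a and Oas2, synthetases of 2′-5′ oligoadenylate, had at most 4 reads in a library. The dynamin-like antiviral GTPase genes Mx1 and Mx2 had at most 13 reads in a library. No fold is given for these genes. In bulk libraries, fewer cells that express a gene and less RNA per cell cannot be told apart. Among them Irf7, the factor that amplifies the type I response, had 5, 10, 36 and 23 reads, so that its RPKM was lowest in the wild-type control at 0.0263 and highest in the null with arsenite at 0.641. Oasl2 was likewise highest in the null with arsenite at an RPKM of 0.369, against 0.0205 in the wild-type control, where it had 5 reads. Other low members had other orders. Ifih1, which encodes the sensor MDA5, had 83, 4, 194 and 3 reads and a lower RPKM with arsenite in both genotypes. Parp14, an ADP-ribosyltransferase, had 369, 10, 260 and 73 reads, and its RPKM of 0.630, 0.0992, 0.432 and 0.660 was lowest in wild type with arsenite.

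The interferon genes themselves had few or no reads at this depth. Ifnb1, Ifna2, Ifna4, Ifnl2 and Ifnl3 were listed at 0 in all 4 libraries, so no read was counted for them. Expression below the floor of 3 reads used here for 0 could still have been missed. Ifng had 1 read in all, in the wild-type control. Ifne, an interferon of epithelia, had 27, 2, 4 and 0 reads.

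**Figure D1:**
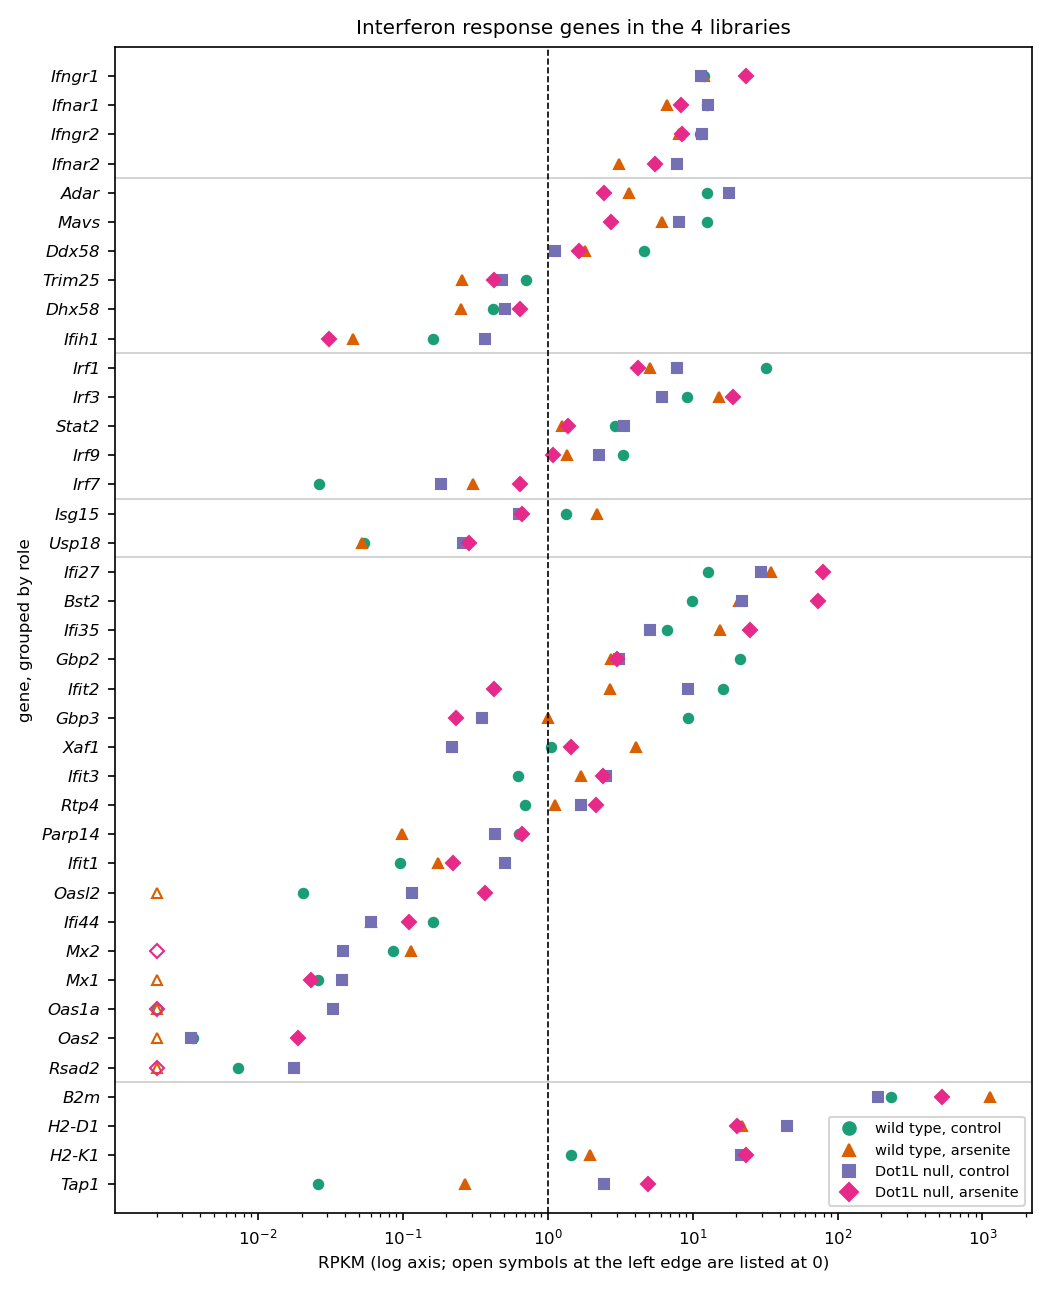
RPKM of each of the 39 genes in the 4 libraries on a log axis, 1 symbol per library, grouped by role, with a dashed line at an RPKM of 1. The 14 genes left of the line in every library include Rsad2, Oas1a, Oas2, Mx1 and Mx2, and B2m stands highest in every library.

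The remaining 25 members reached an RPKM of 1 in at least 1 library, 10 of them with a highest value under 10, 14 between 10 and 100, and B2m alone above 100. A member that passed through 1 high library had to differ between libraries, so the counts below describe the genes that passed and not all members. Between arsenite and control in wild type, 5 of the 25 were higher and 6 lower, 20.0% and 24.0%, beside 12.8% and 35.7% of all genes compared. In the null 6 were higher and 4 lower, 24.0% and 16.0%, beside 15.2% and 37.1%. The medians of the 25 log2 differences were 0.002 and −0.03, against −0.56 and −0.53 for all genes. Those medians of all genes reflect a shift that depends on scaling: of all genes past 2-fold in wild type 26.4% were higher as deposited, 52.8% with the median set to 0, 43.8% with 75th percentiles made equal and 50.01% with a trend on gene length removed. In the null the same shares were 29.0%, 49.6%, 46.6% and 49.4%. With the median set to 0, Adar and Ddx58 in wild type and Mavs and H2-D1 in the null were no longer past 2-fold with arsenite, nor were Xaf1 and B2m between the arsenite libraries. The arsenite comparisons share no library with each other. The 5 members higher in wild type (Bst2, Ifi27, Ifi35, Xaf1 and B2m) were also higher in the null, and of the 6 lower ones Ifit2 and Adar were also lower in the null. Among all genes compared, 1058 of the 1609 higher in wild type were also higher in the null, and 3307 of the 4495 lower ones also lower.

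**Figure D2:**
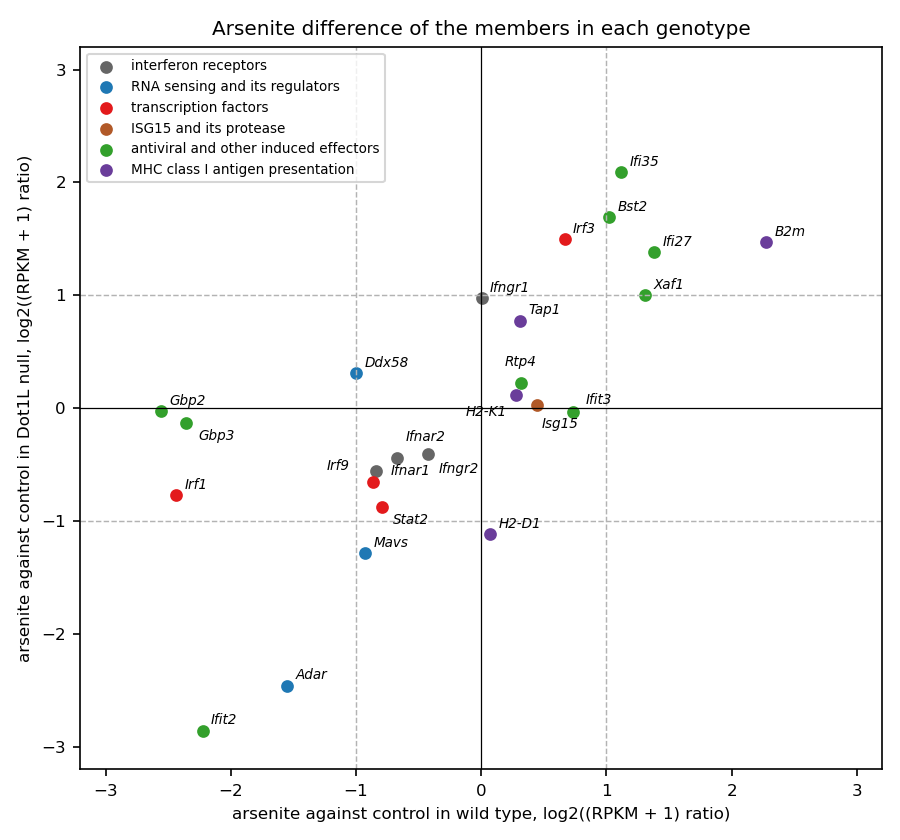
Log2 difference between arsenite and control on the RPKM + 1 scale for the 25 genes past the filter, with wild type on the horizontal and Dot1L null on the vertical axis. Dashed lines mark 2-fold. B2m, Bst2, Ifi27, Ifi35 and Xaf1 lie at or beyond 2-fold higher in both, Ifit2 and Adar beyond 2-fold lower in both, and Gbp2, Gbp3 and Irf1 are lower in wild type with smaller differences in the null.

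Arsenite differences followed gene length. Over 12155 genes the log2 difference fell by 0.63 per doubling of length in wild type and by 0.66 in the null. Of the 7 members past the filter and shorter than 2000 bases, 4 were higher and 0 lower in wild type, beside 33.9% and 13.3% of all 3410 such genes, and likewise 4 and 0 in the null, beside 37.7% and 16.7%. Of the 14 of at least 3000 bases, 1 was higher and 5 lower in wild type, beside 3.002% and 50.9% of all 6996 such genes. In the null 2 were higher and 3 lower, beside 4.36% and 50.04%. Values with this trend removed are given beside the members that its removal takes below 2-fold or past it. Whether length accounts for any single difference was not tested. Genotype differences had slopes of −0.03 and −0.06.

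**Figure D3:**
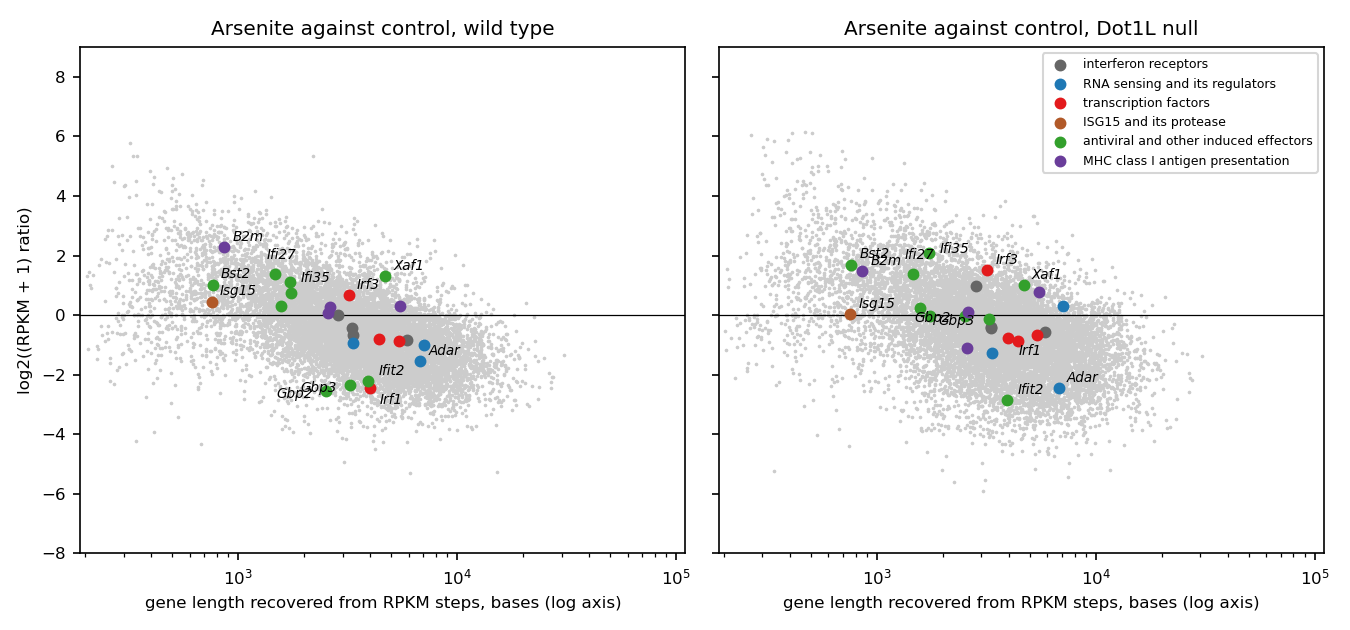
Log2 difference between arsenite and control against gene length recovered from the RPKM steps, for all genes past the filter (grey) and the interferon genes (coloured by role), in wild type (left) and Dot1L null (right). Short genes such as B2m and Bst2 lie with the upper part of the grey cloud and long genes such as Adar with the lower part.

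The 4 receptor chains were expressed in every library, and none was past 2-fold between any pair of libraries compared. Ifnar1, a chain of the type I receptor, had an RPKM of 12.7 untreated and 6.63 with arsenite in wild type, and 12.8 and 8.33 in the null. Ifnar2, its partner, stood at 5.53, 3.11, 7.85 and 5.51. Both chains were lower with arsenite in each genotype, by 1.42- to 1.91-fold. Their log2 differences without the length trend were 0.20 and 0.53 for Ifnar1 and −0.14 and 0.11 for Ifnar2, in wild type and null. Ifngr2, the signaling chain of the gamma receptor, stood at 11.2, 8.08, 11.5 and 8.44. Ifngr1, the chain that binds interferon gamma, had values of 12.0, 12.1, 11.4 and 23.4, so the null with arsenite stood apart from the other libraries. It was 2.05-fold higher (1.89 to 2.22) there than in the null control, just under the threshold on the RPKM + 1 scale at a log2 difference of 0.97. With the length trend removed that difference was 1.38, past 2-fold. Between the arsenite libraries the log2 difference of Ifngr1 was then 1.11 in place of 0.90, also past 2-fold.

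Of 6 RNA sensing members 3 passed the filter, and of these Adar and Ddx58 were lower with arsenite in wild type and Adar and Mavs in the null. That is 66.7% lower in each genotype, from 3 genes, beside 35.7% and 37.1% of all genes. Adar, which encodes the RNA-editing enzyme ADAR1 and is itself induced by interferon, had an RPKM of 12.5 untreated and 3.63 with arsenite in wild type, and 17.9 and 2.43 in the null. Both controls stood above both arsenite libraries, by 3.45-fold (3.05 to 3.92) in wild type and 7.36-fold (6.39 to 8.52) in the null. Both controls were at least 2-fold above both arsenite libraries for 20.1% of all genes, and for 2 of the 25 members, Adar and Ifit2. With the length trend removed the log2 difference of Adar was −0.38 in wild type and −1.23 in the null, in place of −1.55 and −2.46. Mavs, the mitochondrial adaptor of the RNA sensors, stood at 12.6, 6.15, 8.09 and 2.72, lower with arsenite in both genotypes. It was past the threshold in the null alone, 2.98-fold lower (2.45 to 3.65), and at a log2 difference of −0.73 without the length trend. Ddx58, which encodes the sensor RIG-I, stood at 4.64 in the wild-type control and at 1.82, 1.13 and 1.64 in the other libraries. It was 2.55-fold lower (2.15 to 3.05) with arsenite in wild type, at the threshold with a log2 difference of −1.001, and 1.45-fold higher (1.19 to 1.75) with arsenite in the null. With the length trend removed the difference was 0.21 in wild type and 1.57 in the null, the latter past 2-fold higher. The other sensing genes, Ifih1, Dhx58 and Trim25, are among the 14 low members.

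Among the transcription factors Irf1 and Irf3 differed most. Irf1, a factor that interferon gamma induces, had an RPKM of 31.8 untreated and 5.06 with arsenite in wild type, and 7.85 and 4.17 in the null. The wild-type control thus stood alone. Irf1 was 6.29-fold lower (5.50 to 7.23) with arsenite in wild type and 1.88-fold lower (1.62 to 2.19) in the null. With the length trend removed its log2 difference was −1.75 in wild type and −0.055 in the null, in place of −2.44 and −0.78. Irf3, the factor that sensors activate to switch on interferon beta, ran the other way, at 9.19, 15.2, 6.11 and 19.1. Both arsenite libraries stood above both controls, by 1.65-fold (1.495 to 1.82) in wild type and 3.12-fold (2.85 to 3.43) in the null. Stat2 (2.90, 1.26, 3.37 and 1.38) and Irf9 (3.29, 1.35, 2.28 and 1.08), which belong to the complex that binds the response element, were each between 2.11- and 2.45-fold lower with arsenite. Neither reached 2-fold on the RPKM + 1 scale. Their log2 differences without the length trend were −0.01 and −0.06 for Stat2 and 0.10 and 0.35 for Irf9, in wild type and null.

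Isg15, the ubiquitin-like protein that is among the first induced by interferon, remained low. It had an RPKM of 1.34 untreated and 2.20 with arsenite in wild type, and 0.634 and 0.668 in the null, from 64, 18, 31 and 6 reads. Its arsenite ratio in wild type, 1.63 (0.912 to 2.79), had a counting interval that includes no difference. Usp18, the protease that removes ISG15 from proteins, had at most 30 reads in a library.

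Of 18 induced effectors 9 passed the filter, with 4 higher and 3 lower with arsenite in wild type and 4 higher and 1 lower in the null. These are 44.4% and 33.3%, beside 12.8% and 35.7% of all genes, and 44.4% and 11.1%, beside 15.2% and 37.1%. Bst2, which encodes the membrane tether tetherin, had an RPKM of 9.85 untreated and 21.0 with arsenite in wild type, and 21.9 and 73.2 in the null. Ifi27 stood at 12.7, 34.7, 29.7 and 79.2. In both genes the wild-type control was at least 2-fold below each other library and the null with arsenite at least 2-fold above each, patterns that 0.929% and 4.27% of all genes showed. Bst2 was 2.13-fold (1.78 to 2.54) and 3.34-fold (3.03 to 3.68) higher with arsenite in wild type and null, and 2.22-fold (1.99 to 2.48) and 3.48-fold (2.94 to 4.14) higher in the null without and with arsenite. Its arsenite differences were 0.22 and 0.84 on the log2 scale with the length trend removed. Those of Ifi27 were 2.74-fold (2.47 to 3.03) and 2.66-fold (2.50 to 2.84), and remained past 2-fold without the trend. In the annotation the spans of Ifi27 and its relative Ifi27l2a overlap, as do those of Ifit1 and Ifit1bl1, of B2m and Patl2, of Rtp4 and Masp1, of Stat2 and Apof and, by 8 bases, of Adar and Chrnb2. The values of these genes are uncertain to the extent that reads were shared.

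Ifi35 and Xaf1 were also higher with arsenite in both genotypes. Ifi35, an interferon-induced leucine zipper protein, had an RPKM of 6.63 untreated and 15.6 with arsenite in wild type, and 5.07 and 24.9 in the null. Both arsenite libraries were at least 2-fold above both controls, as for 6.28% of all genes, and the ratios were 2.35 (2.04 to 2.69) and 4.90 (4.34 to 5.53). Xaf1, which binds the apoptosis inhibitor XIAP, stood at 1.06, 4.09, 0.218 and 1.44, higher with arsenite by 3.86-fold (3.23 to 4.62) and 6.60-fold (4.71 to 9.29). At a recovered length of 4689 bases it was the 1 long member called higher in wild type, and its log2 differences were larger without the length trend, at 2.14 and 1.88. Within each treatment Xaf1 was lower in the null than in wild type. Wild type with arsenite was at least 2-fold above each other library for Xaf1 and B2m, beside 2.97% of all genes.

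Gbp2 and Gbp3, guanylate-binding GTPases that interferon gamma induces, were high in the wild-type control alone. Gbp2 had an RPKM of 21.1 untreated and 2.75 with arsenite in wild type, and 3.10 and 3.01 in the null. Gbp3 stood at 9.24, 0.997, 0.353 and 0.234. In wild type arsenite went with a 7.67-fold (6.10 to 9.78) lower Gbp2 and a 9.26-fold (6.64 to 13.3) lower Gbp3. In the null the ratio of control to arsenite for Gbp2 was 1.03 (0.820 to 1.30), an interval that includes no difference. Together with Irf1 and Ddx58 these genes made 4 of 25 members in which the wild-type control was at least 2-fold above each other library, beside 7.12% of all genes. The wild-type control enters both the arsenite comparison in wild type and the untreated genotype comparison, so their lower values in both are not separate observations. Guanylate-binding genes resemble each other, and reads could be split between them.

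Ifit2, of the tetratricopeptide family that binds foreign RNA, was lower with arsenite in both genotypes. Ifit2 stood at an RPKM of 16.2 untreated and 2.68 with arsenite in wild type, and 9.36 and 0.429 in the null. The null with arsenite was at least 2-fold below each other library, as for 7.63% of all genes. The ratios were 6.04-fold lower (5.02 to 7.34) and 21.8-fold lower (14.1 to 35.8), and both remained past 2-fold without the length trend. Its relative Ifit3 stood at 0.619, 1.69, 2.51 and 2.41, lowest in the wild-type control, so that neighbours in 1 gene cluster on chromosome 19 did not move alike. Rtp4 stood at 0.697, 1.11, 1.69 and 2.14.

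Between genotypes, the largest ratios among the members with higher values in the null were in MHC class I genes, Tap1 and H2-K1. H2-K1, a classical class I heavy chain, had an RPKM of 1.44 untreated and 1.95 with arsenite in wild type, and 21.5 and 23.4 in the null. It was 14.97-fold higher (13.1 to 17.2) in the null without arsenite and 12.0-fold higher (9.13 to 16.1) with it. Tap1, a subunit of the transporter that loads peptides onto class I, had 9 and 16 reads in the wild-type libraries and 872 and 320 in the null ones. Its RPKM of 0.0261, 0.270, 2.46 and 4.92 made it 94.3-fold (49.4 to 207) and 18.2-fold (11.1 to 32.3) higher in the null. The log2 arsenite differences of Tap1, 0.31 in wild type and 0.77 in the null, were 1.29 and 1.80 without the length trend, past 2-fold. In both genes each null library stood above each wild-type library by at least 2-fold, which held for 1.89% of all genes and for no other member. The genotype comparisons share no library with each other.

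The other class I members differed in other ways. H2-D1, the second classical heavy chain here, was high in the null control alone, at 20.8, 21.8, 44.8 and 20.1. It was 2.16-fold higher (2.07 to 2.25) in the untreated null, 2.22-fold lower (2.05 to 2.42) with arsenite in the null, and at a ratio of 1.05 (0.963 to 1.15) with arsenite in wild type. The null control was at least 2-fold above each other library, as for 2.6% of all genes. Those called differences share the null control and are not separate observations. With the length trend removed its arsenite difference in the null was −0.81. B2m, the light chain shared by all class I molecules, was the most abundant member at 234, 1133, 189 and 526. Both arsenite libraries stood above both controls, by 4.85-fold (4.73 to 4.98) in wild type and 2.78-fold (2.69 to 2.87) in the null. B2m is 860 bases long, and without the length trend its differences were 1.58 and 0.73 in place of 2.27 and 1.47. In the arsenite libraries it was 2.15-fold lower (2.08 to 2.23) in the null than in wild type. Class I heavy chain genes resemble each other in sequence, so the split of reads between H2-K1, H2-D1 and their relatives is uncertain.

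Neighbours of Tap1 on chromosome 17 were also higher in the null. Tap2, the second transporter subunit, had an RPKM of 0.248 and 0.146 in the wild-type libraries and 6.07 and 5.14 in the null ones, 24.5-fold (18.9 to 32.3) and 35.1-fold (15.9 to 96.7) higher. Psmb8, a catalytic subunit of the immunoproteasome, stood at 0.0522 and 0.337 in wild type and at 1.20 and 4.25 in the null. In GRCm38, Tap1 (ENSMUSG00000037321, chromosome 17, 34187556 to 34197225), Psmb8 (34198195 to 34201454) and Tap2 (34204479 to 34216321) follow each other, and H2-K1 (ENSMUSG00000061232, 33996012 to 34000619) lies on the same chromosome. Tapbp, Psmb9, H2-Q4, H2-T23 and H2-M3 are named here after their values were seen. Psmb9, also of the immunoproteasome, stayed under an RPKM of 1, at 0.0174, 0, 0.0929 and 0.920. Tapbp, the chaperone tapasin of class I loading, did not share the pattern: it stood at 57.4, 25.8, 18.8 and 46.8, highest in the wild-type control and lowest in the null control.

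**Figure D4:**
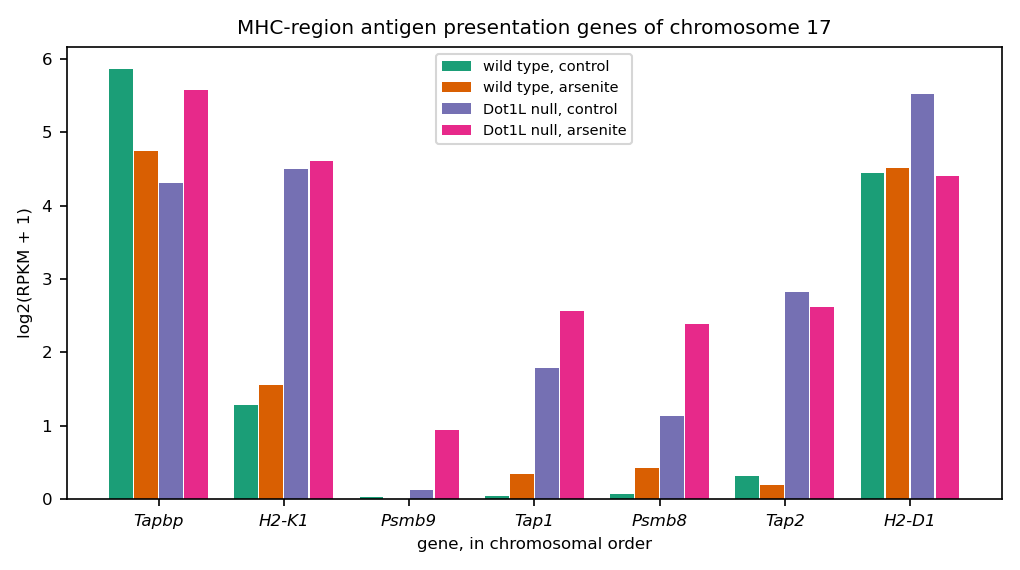
Log2(RPKM + 1) of 7 selected antigen presentation genes of chromosome 17 in the 4 libraries, in chromosomal order, 1 bar per library. H2-Q4, H2-T23 and H2-M3 are not drawn. H2-K1, Tap1, Psmb8 and Tap2 are higher in both null libraries than in both wild-type libraries, whereas Tapbp and H2-D1 are not.

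Of the 25 members, 6 were higher and 4 lower in the untreated null than in wild type, 24.0% and 16.0%, beside 6.45% and 14.7% of all genes compared. Of all genes past 2-fold there, 30.5% were higher as deposited and 43.9% with the median set to 0, and between the arsenite libraries 34.1% and 57.1%. The higher ones were Ifit3, Bst2, Ifi27, Tap1, H2-D1 and H2-K1, and the lower ones Irf1, Ddx58, Gbp2 and Gbp3. With arsenite 4 were higher and 3 lower, 16.0% and 12.0%, beside 8.75% and 16.9%. Bst2, Ifi27, Tap1 and H2-K1 were higher in the null in both comparisons, and with arsenite the lower ones were Ifit2, Xaf1 and B2m. Among all genes compared, 368 of the 812 higher in the untreated null were higher in both, and 720 of the 1852 lower ones lower in both. No member was past 2-fold lower in both on the RPKM + 1 scale, which understates low genes. By RPKM ratio Xaf1 was 4.87-fold lower (3.73 to 6.45) untreated and 2.85-fold lower (2.19 to 3.74) with arsenite, where its log2 difference of −1.06 was −0.81 with the length trend removed. Gbp3 with arsenite was 4.26-fold lower (2.01 to 10.1) in the null, from 35 and 9 reads. Gbp3 untreated was 26.2-fold lower (20.7 to 33.5) and Irf1 4.06-fold lower (3.86 to 4.26) in the null. With arsenite the ratio of wild type to null for Irf1 was 1.21 (0.996 to 1.48), an interval that includes no difference. Subtracting the arsenite difference of wild type from that of the null gave a log2 value of at least 1 in 4 members and of at most −1 in 1, beside 12.1% and 12.8% of all genes. Those 4 were Gbp2 (2.53), Gbp3 (2.23), Irf1 (1.66) and Ddx58 (1.31), and the 1 was H2-D1 (−1.18). It uses the same 4 libraries and is not separate from the comparisons above. The 4 values of Isg15, Stat2, Rtp4, Ifnar1, Ifngr1 and Ifngr2 lay within 2-fold on the RPKM + 1 scale, 6 of 25 members beside 17.9% of all genes. No member was at least 2-fold below each other library in wild type with arsenite (1.1% of all genes) or in the null control (1.76%), or at least 2-fold higher in both wild-type than in both null libraries (2.53%).

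**Figure D5:**
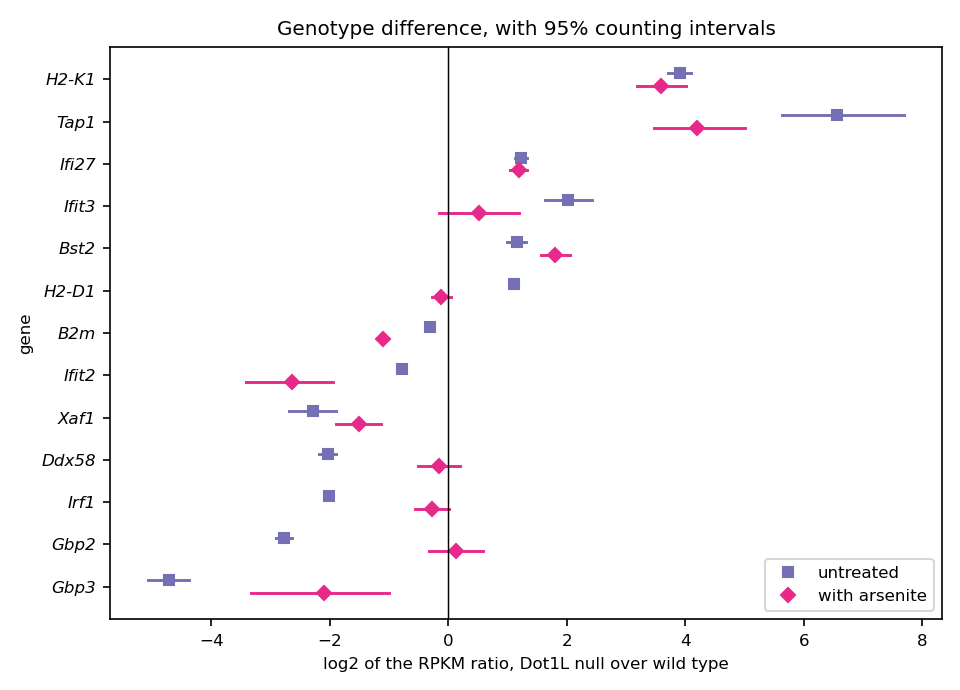
Log2 of the RPKM ratio of Dot1L null over wild type for the 13 genes called in either genotype comparison, untreated (squares) and with arsenite (diamonds), with 95% counting intervals as lines. H2-K1, Tap1, Ifi27 and Bst2 lie right of 0 in both, whereas Irf1, Gbp2 and Ddx58 lie far left of 0 only untreated.

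Other genes of the interferon pathway, from lists chosen with earlier results of these data known, were counted beside the members. Of 81 such genes 59 passed the filter. In wild type 6 had higher and 21 lower values under arsenite (median −0.39), and in the null 14 and 16 (median −0.20). The shares, 10.2% and 35.6% in wild type and 23.7% and 27.1% in the null, stand beside 12.8% and 35.7%, and 15.2% and 37.1%, of all genes, so in wild type they were close to the background. Among 13 kinases, receptors, regulators and factors, 8 were lower and 0 higher in wild type and 4 lower and 0 higher in the null. The lower shares were 61.5% and 30.8%, beside 35.7% and 37.1% of all genes. Once the length trend was removed 5 and 1 of the 13 were lower, beside 1940 and 2529 of the 12588 genes compared. The trend covers the 12155 of these genes that are at least 200 bases long. Jak1, the kinase of all interferon receptors, had an RPKM of 30.4, 4.25, 29.0 and 4.30, 7.14-fold (6.41 to 7.99) and 6.76-fold (6.09 to 7.52) lower with arsenite. Jak2, a kinase of the gamma receptor, stood at 44.4, 5.40, 12.0 and 4.85, and Stat3, a factor of many cytokine receptors, at 27.6, 2.41, 18.5 and 3.57. Tyk2, a kinase of the type I receptor, stood at 5.90, 2.22, 3.68 and 1.82, and Irf2, which can oppose Irf1, at 9.69, 3.60, 6.86 and 2.34. Without the length trend Tyk2 in wild type was at −0.28 and Irf2 at −0.95 and −0.96, short of 2-fold. In the null Jak2 was then at −0.21 and Stat3 at −0.54. Jak1 in both genotypes, and Jak2 and Stat3 in wild type, remained past 2-fold.

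Of 11 sensing genes 2 were lower and 0 higher in wild type, and 4 lower and 2 higher in the null. The lower shares were 18.2% and 36.4%, beside the same 35.7% and 37.1%, and the higher share in the null was 18.2%, beside 15.2%. Traf3, an adaptor between sensors and kinases, stood at 16.4, 2.06, 8.13 and 0.905. Eif2ak2, the kinase PKR that double-stranded RNA activates, stayed at 9.99, 8.77, 7.81 and 8.40, with its largest ratio, 1.28 (1.21 to 1.35), between the untreated genotypes. Tmem173, which encodes the DNA-sensing adaptor STING, stood at 4.33, 2.21, 3.19 and 4.28.

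Of 23 further induced genes 1 was higher and 8 lower in wild type, and 6 higher and 6 lower in the null. These are 4.35% and 34.8%, beside 12.8% and 35.7% of all genes, and 26.1% each, beside 15.2% and 37.1%. Ifitm3, which restricts virus entry, had an RPKM of 202, 375, 225 and 1554, so the null with arsenite stood 6.89-fold (6.71 to 7.08) above its control. Ifitm1, of the same family, stood at 4.43, 7.93, 0.254 and 10.5. Cxcl10, a chemokine that interferon gamma induces, stood at 24.2, 2.49, 3.10 and 0.886, highest in the wild-type control as were Gbp2, Gbp3 and Irf1. Rnf213, a very long gene for a ubiquitin ligase, stood at 7.52, 0.295, 11.2 and 0.274.

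Of 12 further antigen presentation genes, arsenite values were higher for 5 and lower for 3 in wild type, and for 6 and 2 in the null. These are 41.7% and 25%, beside 12.8% and 35.7% of all genes, and 50% and 16.7%, beside 15.2% and 37.1%. Psmb10, a subunit of the immunoproteasome, had an RPKM of 16.1, 53.3, 15.3 and 124. Both arsenite libraries stood above both controls, by 3.30-fold (3.01 to 3.62) and 8.12-fold (7.56 to 8.73). Psme1 (18.8, 53.7, 18.2 and 90.5) and Psme2 (19.6, 62.4, 27.9 and 103), which form the proteasome activator that interferon gamma induces, were also higher in both arsenite libraries than in both controls.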

How the data were processed

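The authors deposited RPKM (reads scaled by gene length and library size) for 37224 Ensembl gene IDs in 4 RNA libraries. Per the submitters' processing notes TopHat, HTSeq, Bowtie and deepTools were used with the build mm10, while the sources used here give neither gene annotation nor strand setting. Libraries were strand-specific after ribosomal depletion, per the labels' protocols, whereas the molecule label reads polyA RNA. Symbols came from a gene name table (35449 IDs matched), and positions and promoter windows from RefSeq in GRCm38, the assembly also called mm10. Of the other pathway genes, Gbp5 had no row and Mb21d1 was matched as Cgas.

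RPKM moves in whole-read steps. Each library's read number was the most frequent inverse of RPKM times length over small RNA genes, and a gene's length was the shortest that made all its values whole reads (relative tolerance 1e-10). Such a length was found for 21617 of 21617 genes above 0, and equalled the annotated span in 359 of 540 small RNA genes. A recovered length, and with it the reads of low genes, can be too small by a whole factor. Differences used a pseudocount of 1 RPKM. The 95% intervals of read ratios are Clopper-Pearson intervals, conditional on the sum of reads, and treat reads as independent molecules, which without molecular identifiers they are not. The floor for 0 is 3 reads. The length trend is a straight line on log2 length over genes of at least 200 bases, removed with its intercept. Methods were tested on simulated data (Python 3.11.15, scipy 1.17.1).

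The members and the gene lists were chosen with earlier results of these data known. All members are accounted for, those past the filter of 1 RPKM with their values. Of the other pathway genes, Jak1, Tyk2, Irf2, Eif2ak2, Tmem173, Ifitm3, Psmb8, Tap2 and Ifnb1 are named, with the 3 highest and 3 lowest per arsenite comparison, and 1 further gene of this rule is not reported here. Alternatives were another pseudocount, another filter, no filter, centring, scaling to the 75th percentile and removal of the length trend.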

Additional observations from a re-analysis of the deposited data

Results flagged for a closer look

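The members and other interferon pathway genes named in the sections above were screened for arsenite differences of opposite sign in wild type and Dot1L null. Cell type markers were not part of this screen. In 4 such genes these differed by at least 1 on the log2 scale. Other pathway genes, not named above, also met this rule, such as Socs1 (−1.24 and 0.41) and Ifi204 (0.29 and −1.63). With 1 library per group these differences were not tested. For Ddx58 the difference, null minus wild type, was 1.31, from −1.001 in wild type and 0.31 in the null. Without the length trend the Ddx58 values were 0.21 and 1.57, no longer of opposite sign. For H2-D1 it was −1.18, from 0.07 and −1.12. For Tmem173 it was 1.07, from −0.73 and 0.33. For Tapbp it was 2.40, from −1.12 and 1.27, so that as deposited this gene was past 2-fold in opposite ways. Without the length trend the Tapbp values were −0.61 and 1.81, past 2-fold in the null alone.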

How the results depend on the processing

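No paired analysis was possible because each group held 1 library, and for the same reason no library could be left out. With a pseudocount of 0.1, the members lower in the null with arsenite numbered 6 in place of 3, and those with a difference of the arsenite effects of at most −1 numbered 4 in place of 1. With a filter at 5 RPKM the median for arsenite in wild type was −0.42, and with no filter −0.0105, in place of 0.002. With no filter the median for the untreated genotypes was 0.0150 in place of −0.07. With the median of all genes set to 0, 8 members in place of 5 were higher with arsenite in wild type, 2 in place of 4 were lower with arsenite in the null, and 1 in place of 3 was lower in the null with arsenite than in wild type. The medians then were 0.50 for arsenite in the null, 0.10 for the untreated genotypes and −0.00927 for the difference of the arsenite effects. After scaling to the 75th percentile, 2 members were lower with arsenite in the null and 1 was lower in the null with arsenite than in wild type, with medians of 0.42 and 0.0619 for arsenite in the null and the untreated genotypes. With the length trend removed, 2 were lower with arsenite in the null, those medians were 0.35 and 0.12, and Ddx58 in wild type stood at 0.21. The cause of these changes was not tested. The sign of these medians thus depended on the setting. The 10 members called between untreated genotypes were past 2-fold under each alternative that tested them. Depth limits the low members: those under 1 RPKM held 60 reads in all in wild type with arsenite.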
